A study of Homo sapiens with 9 samples.

Results

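TFPT, CALM3, BTBD19, ACTB and EGR1 are 5 human genes whose loci serve as reference sites when DNA:RNA hybrids are measured by immunoprecipitation (DRIP). They were taken as a listed set of 5 among 19974 protein-coding genes on chromosomes 1 to 22 and X, each with its RefSeq GRCh38 span plus 1 kb on each side, called its window here. All 5 matched the annotation and all 5 passed the filter of a mean of at least 500 bp under peaks that 12810 genes passed. Where primers for these loci lay is not given in the sources used.

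An R-loop forms when RNA pairs with the DNA strand it was copied from and leaves the other strand single. Such hybrids are common at the starts and ends of active genes, where G-rich RNA pairs stably with its template. The S9.6 antibody binds DNA:RNA hybrids, and RNase H, which cuts the RNA of a hybrid, is the usual specificity control of the assay. In published DRIP work TFPT, CALM3 and BTBD19 are common positive loci, ACTB is a highly transcribed gene, and a site beside EGR1 is often used as a low-signal locus.

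The cells were SH-SY5Y, a human neuroblastoma line, that carried a lentiviral short hairpin RNA expressed from a U6 promoter and were kept under puromycin. The shTDP43 hairpin was directed against TDP-43, an RNA- and DNA-binding protein, and shNC was its control hairpin. The data are peak lists from 1 RNase H-treated shTDP43 library, 1 RNase H-treated shNC library, 3 untreated shTDP43 libraries and 3 untreated shNC libraries; treatment lasted 6 h. No source says whether replicates came from separate transductions or cultures or whether a line is clonal. The p-values therefore reach no further than these libraries. Coverage by peaks is not expression and is no check of the knockdown. Of 7 adrenergic neuroblastoma marker genes, 6 lay under peaks over 72.7% to 100% of their window on average in untreated shTDP43 and 79.9% to 100% in untreated shNC, and TH had no peak in any of the 8 libraries. Of 5 mesenchymal markers, PRRX1 and SNAI2 had no peak either, while TWIST1 was covered over 91.5% in untreated shTDP43 and 98.6% in untreated shNC, VIM over 55.6% in shTDP43 and 60.5% in shNC, and FN1 over 0.192% in shTDP43 and 1.13% in shNC.

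Depth differed between the libraries. The background pileup, the number of fragments expected at a base without enrichment, was 0.991 in RNase H-treated shTDP43 and 0.936 in RNase H-treated shNC. It was 1.05, 1.68 and 1.94 in untreated shTDP43 replicates 1 to 3 and 2.01, 1.93 and 1.62 in untreated shNC replicates 1 to 3. Untreated shTDP43 replicate 1 was thus about as shallow as the treated libraries.

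TFPT, a subunit of the INO80 chromatin remodelling complex, lies on chromosome 19 from 54107020 to 54115657 on the minus strand. Its window overlaps NDUFA3, a subunit of respiratory complex I, and PRPF31, a splicing factor whose span begins just beyond the TFPT start. CALM3, which encodes calmodulin, the calcium-binding messenger protein, lies on chromosome 19 from 46601074 to 46610782 on the plus strand and shares its window with the prostacyclin receptor gene PTGIR, the pseudogene PPP5D1P and the long noncoding RNA gene LOC124904729. BTBD19, a gene for a BTB domain protein, lies on chromosome 1 from 44808523 to 44815585 on the plus strand. ACTB, the gene of cytoplasmic beta-actin, lies on chromosome 7 from 5527148 to 5530601. EGR1, an immediate early zinc finger transcription factor, lies on chromosome 5 from 138465479 to 138469303 on the plus strand. The windows of BTBD19, ACTB and EGR1 hold no other annotated gene. The lists carry no strand, so peaks in the TFPT and CALM3 windows cannot be assigned to 1 of the overlapping genes.

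The 250 bases before a start of TFPT, CALM3, BTBD19 and EGR1 are shown because these starts lay under peaks in all 6 untreated libraries and differed after RNase H. They come from RefSeq on GRCh38.p14, read 5′ to 3′ on the gene's own strand. Capitals mark runs of 4 or more G, a base pattern that favours stable hybrids when it lies on the coding strand of a transcribed stretch. The printed bases lie before the start shown, so RNA from that start does not hold them.
TFPT, chr19:54115658-54115907, minus strand: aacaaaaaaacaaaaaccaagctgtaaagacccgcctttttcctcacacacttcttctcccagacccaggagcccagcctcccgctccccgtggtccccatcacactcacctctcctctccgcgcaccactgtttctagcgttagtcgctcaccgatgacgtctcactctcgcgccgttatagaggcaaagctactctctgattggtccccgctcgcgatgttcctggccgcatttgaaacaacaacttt
CALM3, chr19:46601819-46602068, plus strand, a start inside the span: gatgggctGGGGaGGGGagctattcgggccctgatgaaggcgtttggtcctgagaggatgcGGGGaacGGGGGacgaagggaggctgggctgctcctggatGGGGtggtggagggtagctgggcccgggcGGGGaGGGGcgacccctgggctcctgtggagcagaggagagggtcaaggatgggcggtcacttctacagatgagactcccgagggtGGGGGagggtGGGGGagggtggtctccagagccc
BTBD19, chr1:44808273-44808522, plus strand: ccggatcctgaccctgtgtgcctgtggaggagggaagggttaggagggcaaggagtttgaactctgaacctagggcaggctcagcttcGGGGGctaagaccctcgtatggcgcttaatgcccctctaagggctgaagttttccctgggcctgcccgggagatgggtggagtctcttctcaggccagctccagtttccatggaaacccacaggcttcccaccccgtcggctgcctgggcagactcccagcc
EGR1, chr5:138465229-138465478, plus strand: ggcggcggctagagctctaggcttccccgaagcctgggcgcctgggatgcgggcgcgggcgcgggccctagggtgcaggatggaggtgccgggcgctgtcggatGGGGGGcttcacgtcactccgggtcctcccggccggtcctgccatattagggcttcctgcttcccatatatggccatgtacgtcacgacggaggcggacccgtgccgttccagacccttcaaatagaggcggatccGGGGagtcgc

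The 4 starts differed in base composition. Over each full window of 300 bases, 250 before the start and 50 after it, the skew (G minus C over G plus C) was 0.48 at CALM3, above 99.7% of 34789 RefSeq windows. It was 0.0673 at EGR1, −0.0366 at BTBD19 and −0.26 at TFPT, the last above only 3.64% of windows. CALM3 held 9 runs of 4 or more G, EGR1 3, BTBD19 1 and TFPT 0, where 75.1% of all windows hold at least 1. A second TFPT start, with its window at chr19:54115025-54115324, had a skew of 0.32 and 4 such runs. The CpG ratio, observed over expected, was 0.946 at TFPT and 0.919 at EGR1, and 0.428 at BTBD19 and 0.39 at CALM3. At the second TFPT start it was 0.381. After RNase H the EGR1 window and both TFPT windows stayed wholly under peaks in both treated libraries. The BTBD19 window had 0 of 300 bases under peaks in treated shTDP43 and all 300 in treated shNC, and the G-rich CALM3 window had 0 in both. These are descriptions of single windows, with no test.

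**Figure D1:**
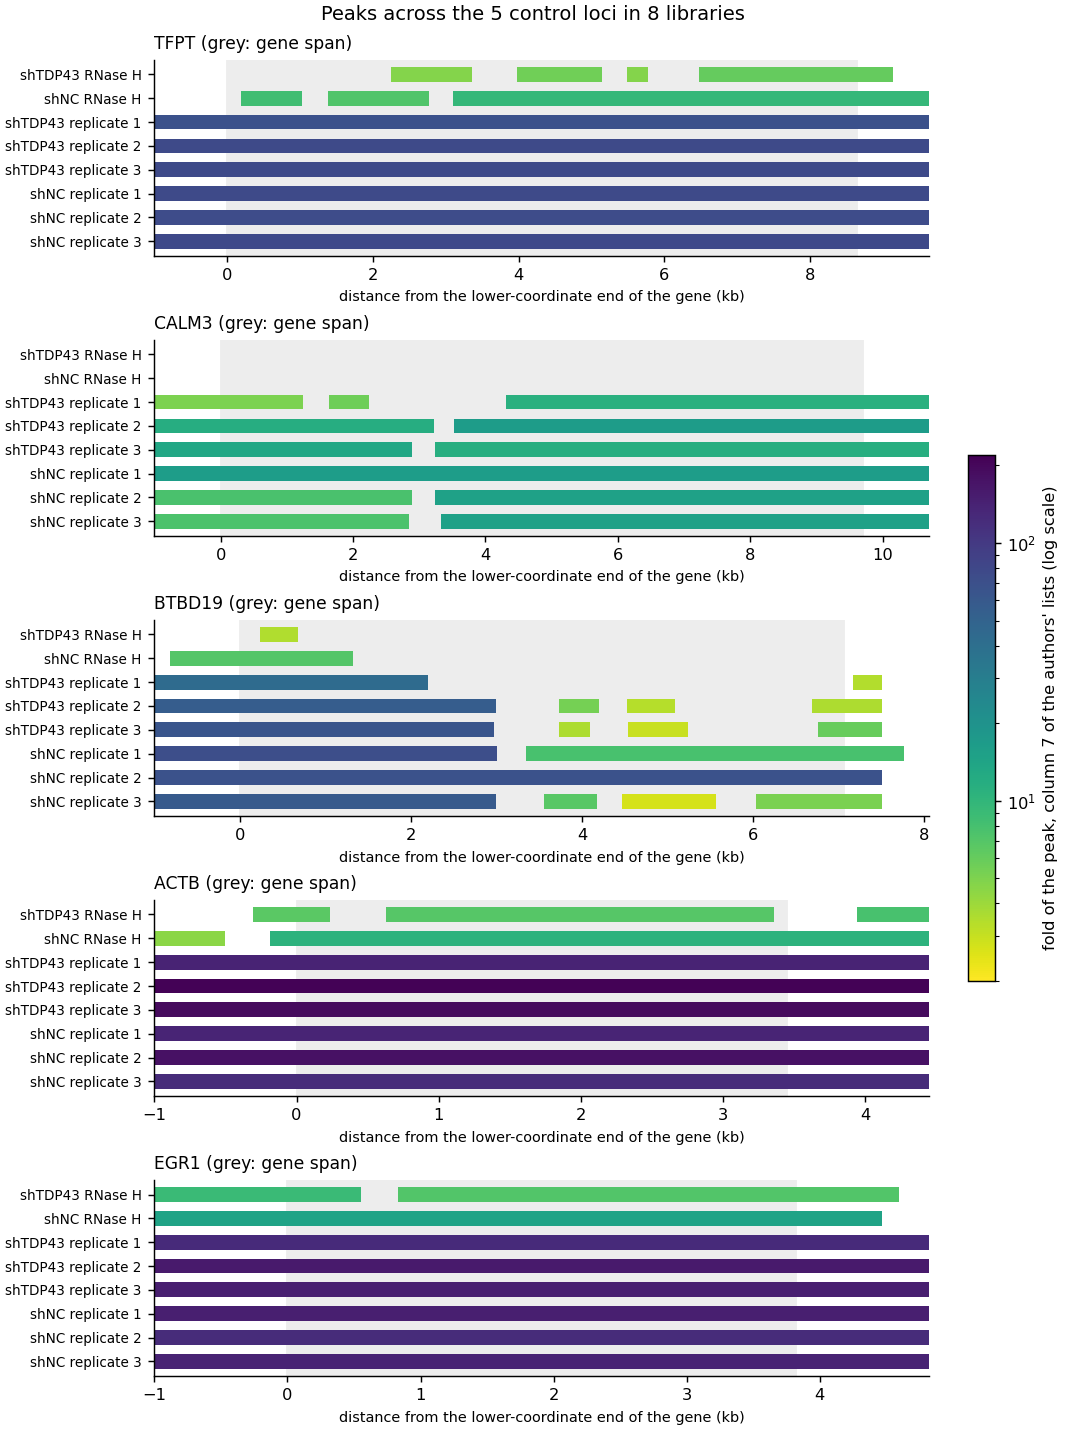
Peaks over each window, with distance from the lower-coordinate end of the gene in kb across, libraries down the page and colour for the fold of each peak on a log scale. TFPT, ACTB and EGR1 are filled in all 6 untreated libraries, CALM3 is broken in 5 of them and no peak in the 2 treated ones, and BTBD19 is filled on its start side and, in all untreated libraries but shNC replicate 2, broken on the other.

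ACTB and EGR1 carried some of the strongest DRIP peaks of every untreated list. Each peak has a fold, the enrichment over local background at its summit that the authors' peak caller wrote in column 7. The folds fit a ratio with 1 added to both the fragments at the summit and the background. Such a fold is below the plain ratio, more so where the background is low. Folds are set side by side here as each list's own values, without a test. A peak that reaches into a window counts for it even where its summit lies just outside, as it did at ACTB in shNC replicates 2 and 3 and at EGR1 in shTDP43 replicate 2. At ACTB the peak had a fold of 141, 213 and 193 in untreated shTDP43 replicates 1 to 3, against 139, 179 and 123 in shNC replicates 1 to 3. It was the strongest of 69642 and of 70016 peaks in shTDP43 replicates 2 and 3, second of 57204 in replicate 1, and ranked 13, 3 and 8 in the shNC lists. The ranges of the genotypes overlapped. Solving the fold and its p-value together gave the number of fragments at the summit, which was 351, 690 and 699 in shTDP43 and 504, 535 and 378 in shNC.

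The EGR1 peak had a fold of 126, 160 and 148 in shTDP43 and 149, 124 and 141 in shNC. It ranked 5 to 10 in the shTDP43 lists and 5 to 24 in the shNC lists. Its summit held 258, 427 and 433 fragments in shTDP43 and 446, 362 and 370 in shNC, and it lay at the same base, 138468483, in 4 of 6 untreated libraries. The peak was 11138 bp wide in shTDP43 replicate 1 and between 16161 and 19171 bp wide in the other 5 libraries, so the called region reached beyond the EGR1 window on both sides.

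At TFPT the fold was 68.0, 76.9 and 76.2 in shTDP43 and 76.5, 74.5 and 77.5 in shNC, with 150, 250 and 275 fragments at the summit in shTDP43 and 283, 267 and 224 in shNC. The peak lay above 99.8% to 99.9% of peaks in each of the 6 lists. It was 15932 bp wide in shTDP43 replicate 1, 31599 bp in shTDP43 replicate 3, and between 16687 and 16887 bp in the other 4 libraries, so it reached past TFPT into both neighbours everywhere. Its summit stood at 54107212 or 54107214 in 4 libraries, inside the overlap with NDUFA3. In the other 2 it stood at 54116589 or 54116591, inside the overlap with PRPF31.

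BTBD19 had a start-side peak with a fold of 43.4, 56.4 and 63.7 in shTDP43 and 72.2, 67.8 and 59.7 in shNC. The summit held 90, 155 and 193 fragments in shTDP43 and 224, 204 and 161 in shNC, and lay between 44809838 and 44809840 in all 6. The lowest value was that of the shallowest library, and the ranges overlapped.

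CALM3 was the weakest of the 5. The highest fold in its window was 11.2, 16.8 and 13.5 in shTDP43 and 16.3, 14.9 and 14.8 in shNC, with 32, 44 and 46 fragments at the summit in shTDP43 and 77, 69 and 60 in shNC. These peaks still lay above 90.1% to 93.6% of their lists, whose median folds ran from 4.33 to 4.77. These summits lay at 46609132 in 4 libraries and elsewhere in shTDP43 replicates 2 and 3. The local background at the summits of these peaks was 1.96, 1.68 and 2.49 in shTDP43 and 3.79, 3.69 and 3.12 in shNC. At the shared base 46609132 a further peak of shTDP43 replicate 3 had a fold of 11.6 and 54 fragments, both below the shNC values there. Its background of 3.74 lay within the shNC range.

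**Figure D2:**
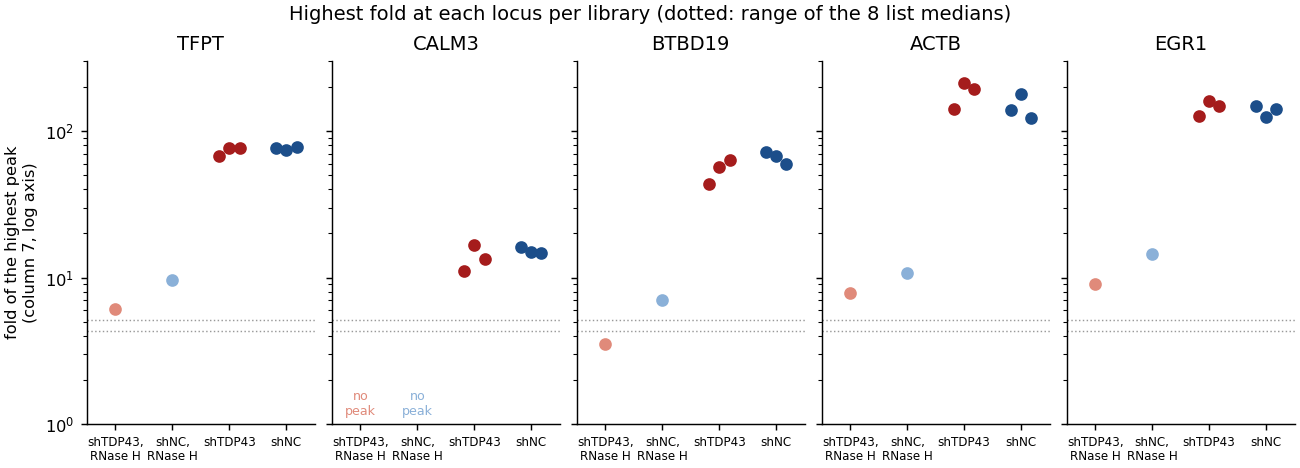
Highest column 7 fold in each window per library on a log axis, with RNase H-treated libraries left of untreated ones and shTDP43 left of shNC; dotted lines mark the lowest and highest median fold of the 8 lists. Untreated folds are above 100 at ACTB and EGR1 and at most 16.8 at CALM3, and every treated fold lies below every untreated one of the same gene.

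Many edges of these peaks fell on the same base in different libraries. The left edge was at 54102213 for TFPT, at 46600001 for CALM3 and at 44799002 for BTBD19 in all 6 untreated libraries. The ACTB peak ran from 5515700 to 5534227 in 5 of 6, the EGR1 peak began at 138457956 in 5 of 6, and the right edges at 46614584 for CALM3 and 44816029 for BTBD19 were shared by 5 of 6. Over whole untreated lists, 29.1% to 36.2% of left or right edges recurred at the same base in another untreated library and 8.73% to 11.5% in all the other 5.

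DNA was cut before the pull-down with BsrGI, EcoRI, HindIII, SspI and XbaI, whose sites read the same on both strands: BsrGI cuts at TGTACA, EcoRI at GAATTC, HindIII at AAGCTT, SspI at AATATT and XbaI at TCTAGA. The promoter windows are the sequence at hand, and none holds an edge of a member's peak, so the edges named above could not be set against sites. Across all windows, between 31.8% and 42.4% of peak edges in the 3 untreated shTDP43 libraries and between 38.3% and 43.9% in the 3 untreated shNC libraries lay on the exact base where a fragment cut by 1 of the 5 enzymes begins or ends. Such bases make up 0.0982% of window bases for each kind of edge. In the treated libraries the share was 20.7% of 140 edges in shTDP43 and 15.0% of 319 in shNC. Of the members' promoter windows, that of CALM3 held a site, for HindIII at 46602100 to 46602105; 5.84% of all windows hold a HindIII site and 22.7% a site of any of the 5. That site lay inside a peak, not at an edge, in all 6 untreated libraries.

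After RNase H no peak was called in the CALM3 window, while the other 4 loci kept peaks. The comparison asks how much of the called signal depends on RNase H-sensitive hybrid. With 1 treated library per genotype, both genotypes entered 1 fit of treated against untreated libraries with genotype as a covariate (limma on log2 of unscaled covered bp plus 100). Of 12708 genes tested, 94.4% had less coverage after RNase H and 0.669% more at an adjusted p under 0.05. Of the 5 loci 4 had less and 0 more, which is near the share of all genes. The values differed widely between the loci.

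At CALM3 no base was under a peak in treated shTDP43 or treated shNC. Untreated coverage was 9239, 11410 and 11359 bp in shTDP43 and 11709, 11364 and 11224 bp in shNC (limma adjusted p = 8.87e-09, lower in both treated libraries). No fold is given, since the treated libraries are listed without a peak. Untreated shTDP43 replicate 1, the library closest to the treated ones in depth, had 9239 bp. What part depth had in the CALM3 loss was not tested.

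At BTBD19 the covered length was 452 bp in treated shTDP43 and 2132 bp in treated shNC. It was 3531, 5849 and 5788 bp in untreated shTDP43 and 8441, 8507 and 7193 bp in untreated shNC, a log2 change of −2.53 ± 0.34 (SE, limma adjusted p = 4.51e-04). What remained lay on the start side and ended at or before 44809840. Treated shTDP43 kept 44808755 to 44809206 at a fold of 3.52, from 6 fragments at the summit, and its −log10 q of 1.32 was close to the lowest in that list. Treated shNC kept 44807709 to 44809840, across the gene start, at a fold of 7.04. Neither treated peak reached a −log10 q of 10.

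At TFPT the covered length was 5225 bp in treated shTDP43, in 4 peaks, and 8767 bp in treated shNC, in 3 peaks, against all 10638 bp in each of the 6 untreated libraries. The log2 change was −0.64 ± 0.16 (SE, limma adjusted p = 0.00887). It was −0.28 without treated shTDP43 and −1.01 without treated shNC. The fold reached 6.06 in treated shTDP43 and 9.62 in treated shNC, from 12 fragments in shTDP43 and 19 in shNC, the summit in shNC lying just outside the window. Of 4 equal segments of the window, the one on the NDUFA3 side was covered over 20.9% on average in the 2 treated libraries. The one that holds the TFPT start and overlaps PRPF31 was covered over 90.7%. The windows of the neighbours were covered over 0% in treated shTDP43 and 14.9% in treated shNC at NDUFA3, and over 7.85% in shTDP43 and 14.6% in shNC at PRPF31. The log2 change at TFPT was −1.11 with peaks of a −log10 q of 5 or more. With peaks of 10 or more, treated shNC kept peaks and treated shTDP43 none, so no fold is given.

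At ACTB the covered length was 3776 bp in treated shTDP43 and 5138 bp in treated shNC, against all 5454 bp in each of the 6 untreated libraries. The log2 change was −0.30 ± 0.11 (SE, limma adjusted p = 0.0310), and −0.08 without treated shTDP43 and −0.52 without treated shNC. The call ended without any 1 of shTDP43 replicates 2 and 3 and shNC replicates 1, 2 and 3 (adjusted p from 0.0528 to 0.0661), over the gene span alone (log2 change −0.11, 0.130) and with peaks of a −log10 q of 10 or more (0.0540), where treated shTDP43 kept no peak. The fold reached 7.88 in treated shTDP43, at a summit outside the window, and 10.7 in treated shNC. The right edge of the treated peaks was at 5534042 in both.

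EGR1 kept the largest share of its window in treated shTDP43, and ACTB and EGR1 kept the largest shares in treated shNC. The EGR1 covered length was 5319 bp in treated shTDP43 and 5466 bp in treated shNC, against all 5825 bp in each of the 6 untreated libraries. Its log2 change was −0.11 ± 0.06 (SE) and missed the threshold (limma adjusted p = 0.109). It was −0.09 without treated shTDP43 and −0.13 without treated shNC. At an unchanged −0.11 it passed with peaks of a −log10 q of 5 or more (limma adjusted p = 0.0121) or 10 or more (6.97e-04). The fold reached 9.04 in treated shTDP43, at a summit outside the window, and 14.5 in treated shNC, where 27 fragments stood at the summit and 95.3% of the list had a lower fold. Both treated peaks began at base 138463068, and the treated shNC summit stood at 138468483, the base that 4 untreated libraries shared.

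The fit takes the treated libraries to vary like the untreated ones, and at TFPT, ACTB and EGR1 the untreated values had no spread, because the windows were full. The p-values at these loci rest on the spread between the treated libraries and on the variance that limma draws from all genes. Without 1 treated library these loci had no spread of their own, so only log2 changes are given for that case. Treated shTDP43 had less coverage than treated shNC at each of the 4 loci with peaks, as in the whole lists, which covered 5.66 Mb in treated shTDP43 and 10.5 Mb in treated shNC. With 1 treated library each, that difference was not tested. Each library was made from a fixed mass of recovered DNA, per the labels, so a fold after RNase H does not show how much hybrid was left. Scaled to equal library totals, 4 loci had more coverage after RNase H instead (log2 changes of 3.34 at TFPT, 1.31 at BTBD19, 3.67 at ACTB and 3.87 at EGR1).

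**Figure D3:**
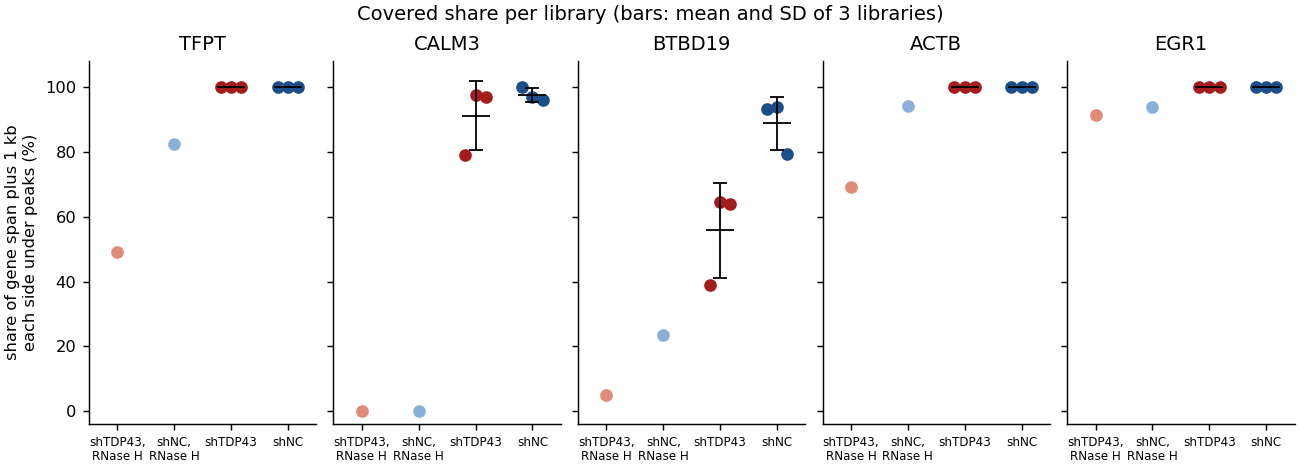
Percent of each window (the gene with 1 kb at either end) under peaks, for each library, with RNase H-treated libraries left of untreated ones and shTDP43 left of shNC; bars give the mean and SD of 3 libraries. TFPT, ACTB and EGR1 are at 100% in all untreated libraries and CALM3 is at 0% in both treated ones.

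Genes with full coverage before RNase H had either outcome after it. Of tested genes, 533 of 12810 were covered over their whole window in all 6 untreated libraries, and of these 37.5% had a peak in both treated libraries and 33.6% in neither, against 19.4% and 60.5% of all tested genes. Among the bases covered before treatment, those also under a treated peak of the same genotype made up 49.1% at TFPT, 69.2% at ACTB and 91.3% at EGR1 in each shTDP43 library. In each shNC library they made up 82.4% at TFPT, 94.2% at ACTB and 93.8% at EGR1. At BTBD19 the share was 12.8%, 7.73% and 7.81% in shTDP43 replicates 1 to 3 and 25.3%, 25.1% and 29.6% in shNC replicates 1 to 3. The median over genes was 0%, and the share at TFPT, ACTB and EGR1 lay above 98.8% to 99.5% of genes with coverage.

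ACTB and EGR1, with the highest untreated folds, kept the largest shares of their windows among the 5, and CALM3, with the lowest, kept none. TFPT and BTBD19 lay between, and BTBD19, with the lower fold in each library, kept less than TFPT. Over whole lists the share of peaks that overlapped a treated one also went with the fold. Of untreated peaks with a fold of 100 and over, the class of ACTB and EGR1, between 96.1% and 100% in the shTDP43 libraries and 100% in each shNC library overlapped a treated peak. For folds of 50 to 100, which hold TFPT in all 6 libraries and BTBD19 in 5, the share was 59.6% to 81.3% in shTDP43 and 77.2% to 90.7% in shNC. For folds of 10 to 20, which hold CALM3, it was 6.18% to 7.85% in shTDP43 and 11.6% to 13.3% in shNC. Strong peaks were also wider, with medians of 18.3 to 18.9 kb in shTDP43 and 18.5 to 20.1 kb in shNC at folds of 100 and over, against 3.84 to 3.86 kb in shTDP43 and 3.62 to 4.01 kb in shNC at 10 to 20. The share of their bases under a treated peak was 20.3% to 34.7% in shTDP43 and 33.9% to 38.7% in shNC at folds of 100 and over. The shares by fold are over whole peaks, while those at the 5 loci are of gene windows, so the values are not alike. The ACTB window is 5454 bp, where the peak in untreated shTDP43 replicate 2 was 18528 bp wide. Peaks are not replicates, and the part of width in the shares by fold was not tested.

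**Figure D4:**
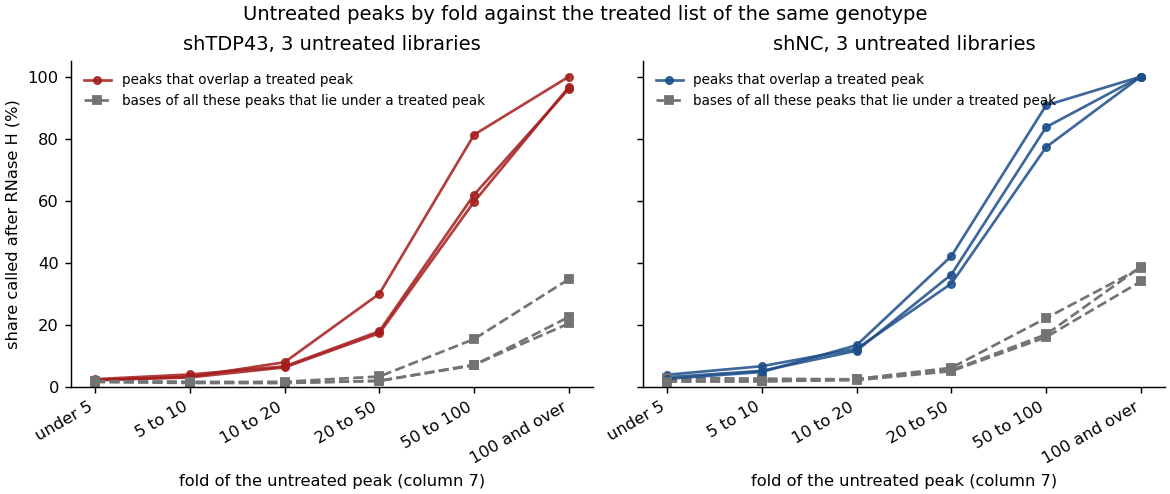
Share of untreated peaks that overlap a treated peak of the same genotype (solid lines, at least 1 base) and share of their bases under one (dashed lines), in percent, by column 7 fold of the untreated peak, with shTDP43 on the left and shNC on the right and 1 line per untreated library. The share of peaks rises from bin to bin, to between 96.1% and 100% at folds of 100 and over, and the share of bases rises above a fold of 20.

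Between genotypes without RNase H, none of the 5 loci passed. The comparison asks whether TDP-43 knockdown changed hybrid coverage at these loci (limma on log2 of covered bp, scaled to the median library total, plus 100). Of 12810 genes tested, 0.749% had less coverage in shTDP43 and 0.172% more, or 96 and 22 genes, and 1474 genes had an unadjusted p under 0.05. Of the 5 loci 0 were called in either direction, and 1, BTBD19, had an unadjusted p under 0.05.

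BTBD19 had the largest difference of the 5, with 5.06 ± 1.32 kb in shTDP43 and 8.05 ± 0.74 kb in shNC (SD, n = 3). All 3 shTDP43 values lay below all 3 shNC values, as they did for 14.0% of tested genes, with 0.796% the other way round. The log2 change was −0.50 ± 0.13 (SE, limma adjusted p = 0.155, unadjusted 0.00475), and it stayed between −0.69 and −0.43 over 17 alternatives, with adjusted p from 0.105 to 0.720. The shallowest library was the lowest, and without it the log2 change was −0.43. Untreated shTDP43 replicate 3, with 5788 bp, had a higher background pileup than shNC replicate 3, with 7193 bp. What part depth had in the BTBD19 difference was not tested.

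The BTBD19 difference in covered length lay away from the gene start. Of 4 equal segments of the window the first, which holds the gene start, was covered over 100% in all 6 libraries. Covered length therefore cannot show a difference in that segment. In the second the covered share averaged 64.2% in shTDP43 and 87.3% in shNC, in the third 31.0% in shTDP43 and 92.0% in shNC, and in the last 27.9% in shTDP43 and 75.9% in shNC. Separate peaks beyond the start-side peak had folds between 2.71 and 7.93, and in shNC replicate 2 the stretch was joined to the start-side peak, so it has no fold of its own. In shTDP43 replicate 1 a gap of 4976 bp followed the start-side peak, while the longest gap was 1601 bp in shTDP43 replicate 2 and 1522 bp in replicate 3. In shNC the longest gap was 330, 556 and 559 bp in replicates 1 to 3.

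CALM3 had 10.7 ± 1.24 kb in shTDP43 and 11.4 ± 0.25 kb in shNC (SD, n = 3), and the groups overlapped. Its log2 change was 0.09 ± 0.10 (SE, limma adjusted p = 0.684), and −0.11 without scaling. The window was unbroken in shNC replicate 1. In shTDP43 replicates 2 and 3 and shNC replicates 2 and 3 it had 1 gap of 299 to 485 bp that began within 3.85 to 4.22 kb of the left end of the window. In shTDP43 replicate 1 that place lay in a gap of 2075 bp, and a further gap of 395 bp stood beside it. The overlapping neighbour PTGIR was covered over 63.4% of its window in shTDP43 and 88.8% in shNC. It had 10.4 ± 0.55 kb in shTDP43 and 14.6 ± 0.57 kb in shNC (log2 change −0.29 ± 0.14 SE, limma adjusted p = 0.482). The groups did not overlap, with shTDP43 lower, as for 14.0% of tested genes.

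TFPT, ACTB and EGR1 were covered over the same full length in all 6 libraries, so covered length cannot show a difference there. Their log2 changes of 0.19 ± 0.15, 0.19 ± 0.17 and 0.19 ± 0.17 (SE) come from the scaling and were 0 without it (limma adjusted p from 0.634 to 0.635). The median over all genes was 0.05 with scaling and −0.15 without it.

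Other loci used in DRIP assays were not called between genotypes either. The list was RPL13A, MYADM, MIB2, GAPDH, FOS, JUN and GADD45A, of which 0 of 7 passed. Over all genes 0.749% had less coverage in shTDP43 and 0.172% more, so few calls would be looked for in a short list. RPL13A and GAPDH were full in every untreated library, where covered length cannot show a difference. The median log2 change was 0.19, the shift that scaling gives a full window, against 0.05 over all genes. After RNase H all 7 had less coverage, against 94.4% of all genes. Of SNRPN, ZNF544 and ZNF554, often used where little signal is wanted, 0 of 3 passed. SNRPN was covered over 1.95% of its window in shTDP43 and 1.57% in shNC, and ZNF544 over 3.95% in shTDP43 and 4.41% in shNC. ZNF554 was covered over 44.6% in shTDP43 and 43.8% in shNC. The EGR1 window was at 100%. A low-signal site is often placed beside EGR1, and that site was not examined, since no primer position is given. After RNase H SNRPN, ZNF544 and ZNF554 had no peak, and the EGR1 window had peaks in both treated libraries.

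CALM2, which encodes the same protein as CALM3, was less covered. Without RNase H it was covered over 40.4% of its window in shTDP43 and 56.0% in shNC (log2 change −0.27 ± 0.15 SE, limma adjusted p = 0.548). Its groups did not overlap, with shTDP43 lower, as for 14.0% of tested genes. After RNase H, CALM2 had 2.23% in shTDP43 and 20.5% in shNC, where CALM3 had 0% in both. ACTG1, the gene of the other cytoplasmic actin, was as full as ACTB before treatment, at 100% in all 6 libraries, but had 0% in treated shTDP43 and 8.82% in treated shNC. GAPDH, also full, had 15.8% in treated shTDP43 and 6.71% in treated shNC.

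EGR1 stood apart from its family in level. The other EGR genes averaged 60.9% to 80.2% of their windows in untreated shTDP43 and 46.0% to 69.4% in untreated shNC, and none had a peak after RNase H. Of 16 immediate early genes, 15 were tested between genotypes and 0 passed, and NR4A2 had no peak in any library. Over all genes 0.749% had less coverage in shTDP43 and 0.172% more. After RNase H, 14 of 15 tested had less coverage, near the 94.4% of all genes. EGR1 was not called in the main fit, but was with peaks of a −log10 q of 5 or more. FOS was covered over 72.7% in treated shTDP43 and 76.6% in treated shNC, and FOSB 30.4% in shTDP43 and 52.3% in shNC. IER3 and IER5 had no peak in either.

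Genes of similar length with the most similar covered share over the 8 libraries were VEGFB for TFPT, with a mean difference of 0.463 percentage points, ZNF513 for ACTB (0.447), APRT for EGR1 (0.924) and CAMK1 for CALM3 (1.07). VEGFB had 50.1% in treated shTDP43 and 85.1% in treated shNC, and 100% in all untreated libraries. Within 5 points there were 20 genes for TFPT, 18 for ACTB, 13 for EGR1 and 509 for CALM3. For BTBD19 there were 0, and the nearest, IRF1, differed by 7.26 points.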

How the data were processed

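DRIP-seq peak lists of 8 libraries were used, 1 list per library. Per the submitters' processing notes, Bowtie2 2.4.4, SAMtools and MACS2 2.2.6 were used on hg38, without settings; no source used here gives the peak-calling control. The input library was not analysed here. The deposited lists hold the authors' fold (a ratio over local background), −log10 p, −log10 q and score (10 times the −log10 q) per peak, with no read counts.

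Covered length per window was summed from peaks on chromosomes 1 to 22 and X. Sums equalled a brute-force count in 500 windows. Genes averaging 500 bp or more were compared by limma 3.58.1 under R 4.3.3 (trend, Benjamini-Hochberg over all genes, adjusted p under 0.05). Fold was taken as the summit pileup plus 1 over the local background plus 1. Fold and −log10 p were solved for a whole-number summit pileup. This held for all 64 member peaks within 0.001, or 1e-05 of the −log10 p where that is larger. Background pileup is the commonest solved background of 3000 summits per library. The test was checked on simulated data.

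All 5 members were named, with overlapping genes, fixed comparator lists and the 2 genes nearest in covered share. Members and lists were chosen with earlier results of these data known. RefSeq GRCh38.p14 gave positions and sequences; it shares its coordinates with hg38, and 4 of 5 genes matched a promoter window.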

Additional observations from a re-analysis of the deposited data

How the results depend on the processing

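Between genotypes no member was called under any of the 17 alternatives. Directions kept, or were 0 in full windows without scaling, except for CALM3, at −0.11 without scaling and −0.041 with peaks of a −log10 q of 10 or more. After RNase H, scaling to the median total turned the log2 changes to 3.34 at TFPT, 1.31 at BTBD19, 3.67 at ACTB and 3.87 at EGR1, giving 4 loci higher and 1 lower; the scaling raises treated lengths by construction. It gave 1500 genes with more coverage against 85.

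Other counts moved, and the cause was not tested. Genes with more and with less coverage in shTDP43 numbered 22 and 96. They were 1 and 19 without scaling, 36 and 160 with 500 bp added, 3 and 30 at a −log10 q of 5 or more, 2 and 30 at 10 or more, and 14 and 61 without the variance trend. With equal peak numbers 44 had more. Leaving out 1 library gave 6 to 57 with more and 12 to 166 with less, the highest of both without shTDP43 replicate 1. Without shTDP43 replicate 2 or 3, 14 had more; without shNC replicate 1, 2 or 3, 6, 8 or 7 had more and 12, 24 or 20 less. Genes with more coverage after RNase H numbered 40 with 10 bp added, 361 without a filter, 24 at a mean of at least 1000 bp, 29 at a −log10 q of 10 or more, and 20 to 111 leaving out 1 library, with 31 without treated shTDP43 and 20 without treated shNC.

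Deviations of same-numbered libraries from their group means correlated at −0.17, 0.06 and −0.17, and those of differently numbered ones between −0.18 and 0.23. With so few libraries these values cannot tell whether replicate numbers mark a shared batch. With the replicate block 9 genes had more and 65 less coverage, no member was called, and BTBD19 had a limma adjusted p of 0.371. Leaving out 1 untreated library ended the ACTB call after RNase H as given above. Depth limits what can be seen in the shallow libraries, and full windows cannot show an increase.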
